A study of Homo sapiens with 6 samples.

Results

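CCDC152 is a little-studied gene on human chromosome 5 that encodes a coiled-coil domain protein. In the RefSeq reference it overlaps SELENOP (older symbol SEPP1), which lies on the opposite strand, and its neighbours include GHR and ANXA2R. CCDC152 was chosen by its measured level, which was high on the gamma_OFF arrays of this series; SELENOP, GHR and ANXA2R were chosen by position beside it. Of these 4 genes, 3 had a row that the platform annotation names, and each had 1 row, among 16098 named rows for 14884 genes. SELENOP had no named row here and its level was not analysed here.

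The cells were clones of H9, a human embryonic stem cell line, kept on a mouse embryonic fibroblast feeder layer with 8 ng/ml bFGF. All 6 samples carried a lentiviral vector in which the EF1α promoter stands before an IRES and eGFP, and the cells had been sorted for GFP and a surface antigen of pluripotent cells, plated singly and expanded from colonies. H2A.X is the histone H2A variant whose phosphorylated form marks DNA double-strand breaks. In gamma_OFF (2 arrays) the vector also held H2A.X with T136A and S139A, which removes phosphorylatable residues. In gamma_ON (2 arrays) it held H2A.X with S139E, where a glutamate mimics the phosphate. CTRL (2 arrays) carried eGFP and no added H2A.X, and no group carried unsubstituted H2A.X, so a substitution and added histone cannot be told apart. The labels do not say whether replicates are separate clones or cultures, so the p-values reflect only how these samples vary, and that variation may be technical.

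SELENOP encodes selenoprotein P, a plasma protein made mainly by the liver that carries selenium, as selenocysteine residues, to other tissues. Selenocysteine is inserted at UGA codons with the help of a stem-loop in the messenger and the factors that read it. A transcript of CCDC152, listed in the reference under the synonym LIST, was reported in human cells to act as a long noncoding RNA that pairs with SELENOP messenger and lowers its translation. GHR encodes the growth hormone receptor, which signals through JAK2 and STAT5, and ANXA2R encodes a small protein described as a receptor for annexin A2.

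The promoter windows of CCDC152 and SELENOP are shown because the genes overlap while their start sites lie apart, so each window is that gene's own. Each run holds 250 bases before and 50 after the RefSeq start site, read 5′ to 3′ along the gene's strand. CCDC152 (GRCh38.p14, chr5:42756568-42756867) is on the plus strand and SELENOP (GRCh38.p14, chr5:42811843-42812142) on the minus strand. Capitals mark matches to the motifs searched.
CCDC152: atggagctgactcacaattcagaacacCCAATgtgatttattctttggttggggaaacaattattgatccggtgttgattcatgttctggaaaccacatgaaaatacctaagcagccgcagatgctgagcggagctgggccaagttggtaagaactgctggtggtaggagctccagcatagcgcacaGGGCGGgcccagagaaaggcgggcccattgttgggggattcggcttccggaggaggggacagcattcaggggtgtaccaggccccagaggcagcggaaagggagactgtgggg
SELENOP: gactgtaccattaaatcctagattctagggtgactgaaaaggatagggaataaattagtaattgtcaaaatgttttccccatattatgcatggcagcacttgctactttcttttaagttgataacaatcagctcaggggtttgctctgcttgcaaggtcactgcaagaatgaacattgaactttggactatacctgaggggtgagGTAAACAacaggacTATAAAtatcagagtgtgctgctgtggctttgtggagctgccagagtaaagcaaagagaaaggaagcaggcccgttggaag

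Both strands were searched for TATAAA (the TATA box), then CCAAT (the box named after these letters), then GGGCGG (the GC box), then GTAAACA (a forkhead core) and finally CACGTG (an E-box), and no 2 of the matches overlapped. The CCDC152 window held CCAAT with its first base at position -223 from the start site and GGGCGG at position -63, motifs that 34.6% and 45.0% of all 35116 promoter windows hold. The SELENOP window held TATAAA at position -31 and GTAAACA at position -45, which 11.5% and 3.42% of windows hold. CACGTG, held by 7.26% of windows, was in neither. GC content was 54.7% in the CCDC152 window and 42.0% in the SELENOP window, against a median of 58.7% over all windows. The windows held 9 and 1 CpG dinucleotides, against a median of 14. These are matches of letters and no binding was measured.

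Levels are the deposited log2 values, so a difference of 1 is a 2-fold change. On average the pluripotent-cell markers were high on all 6 arrays, with 9 of 10 measured. Their mean was 10.35 and 10.43 on the gamma_OFF arrays, between 10.28 and 10.35 on the gamma_ON arrays and between 10.06 and 10.21 on the CTRL arrays. Single markers differed: NANOG ran from 6.26 to 7.29 and POU5F1 from 7.10 to 8.05, against array medians of 6.11 to 6.25. The 5 measured fibroblast markers of 11 averaged 7.24 to 7.38 on gamma_OFF arrays, 7.63 to 7.69 on gamma_ON arrays and 7.49 to 7.67 on CTRL arrays. Of these, LUM ran from 8.69 to 10.03, TAGLN from 8.52 to 9.16 and THY1 from 7.94 to 8.59. DCN ran from 5.60 to 6.20 and S100A4 from 5.23 to 5.56. The part of the fibroblast markers in the results was not tested. The gamma_OFF arrays stood apart. Their SD over genes was 1.70 on replicate 1 and 1.64 on replicate 2, against 1.76 to 1.81 on the other arrays. The limma array weight was 0.544 for each gamma_OFF array, against 1.24 in gamma_ON and 1.48 in CTRL. With 2 arrays per group both arrays of a pair get the same weight. It therefore reflects the gap within the pair and not the quality of each array.

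CCDC152 was far higher in gamma_OFF than in either other group. Its level was 8.38 and 7.72 on the gamma_OFF arrays, 5.38 and 5.04 on the gamma_ON arrays, and 4.51 and 4.79 on the CTRL arrays. Both gamma_OFF arrays lay above all other arrays, and both gamma_ON arrays lay above both CTRL arrays by a smaller margin. The means were 8.05 ± 0.46 in gamma_OFF, 5.21 ± 0.24 in gamma_ON and 4.65 ± 0.20 in CTRL (SD, n = 2 each). Because the gene was chosen for this pattern, the differences below are a description and carry no test, and their standard errors and intervals show only the spread of the fit. If both gamma_OFF arrays came from 1 clone, which the labels leave unsaid, an effect of the vector and one of the clone cannot be told apart.

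Gamma_OFF exceeded CTRL by 3.40 (SE 0.22), a 10.6-fold difference with a 95% interval of 7.55 to 14.8-fold. This was the highest of 14884 genes and of all 53617 rows of the table, named or not. The next gene, SNAR-H, a small noncoding RNA gene with near-identical copies, stood at 2.21, and those were the only 2 genes at 2 or more, while 4 genes stood at -2 or less. Gamma_OFF exceeded gamma_ON by 2.84 (SE 0.22), or 7.16-fold, again the highest of all genes and the second highest of all rows. The next gene there, CABYR, stood at 1.90. The comparisons share arrays, so their values are not independent of each other.

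The difference between gamma_ON and CTRL was smaller, at 0.57 (SE 0.22), a 1.48-fold difference with an interval of 1.06 to 2.07-fold. In that comparison CCDC152 was in place 246 of 14884 genes from the top and in place 1143 of 53617 rows. AFP, the alpha-fetoprotein gene, led that comparison with 4.37. By mean level the order was gamma_OFF, gamma_ON, CTRL, and the step between gamma_ON and CTRL was the smaller one.

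The 2 gamma_OFF arrays differed from each other in CCDC152 by 0.65, a wider gap than 97.3% of genes had between those arrays. The gap was 0.34 in gamma_ON and 0.28 in CTRL, wider than for 91.2% and 88.2% of genes there. The step of gamma_OFF over the other groups was several times these gaps. Without gamma_OFF replicate 2 the difference of gamma_OFF from CTRL was 3.73, and without gamma_OFF replicate 1 it was 3.08. The table holds no detection call, so whether the CTRL level was above background is not known. The probe sequences of the row were not used here, so whether any probe lies in the stretch shared with SELENOP is not known. In bulk RNA, more cells with a transcript and more transcript per cell cannot be told apart.

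**Figure D1:**
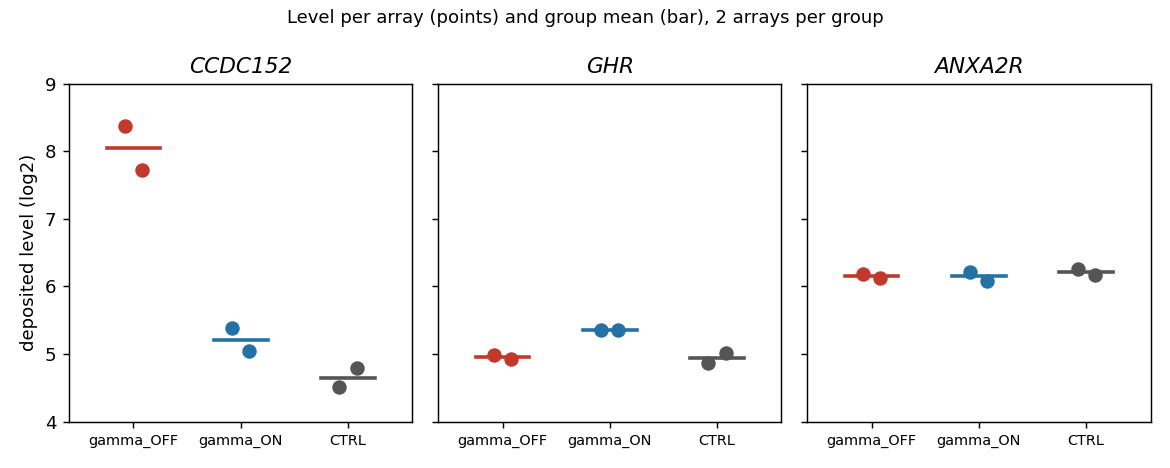
Deposited log2 level of CCDC152, GHR and ANXA2R on each array (points, 2 per group) with the group mean (bar), for gamma_OFF, gamma_ON and CTRL. CCDC152 stands at 8.38 and 7.72 in gamma_OFF and at 5.38 or below elsewhere, while GHR and ANXA2R each stay within about 1 log2 unit; levels are compared within a panel only.

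GHR, just before CCDC152 in the reference order of the named rows, did not follow it. Its level was 4.99 and 4.93 on the gamma_OFF arrays, 5.35 and 5.36 on the gamma_ON arrays, and 4.87 and 5.02 on the CTRL arrays. These levels lay under the array medians of 6.11 to 6.25. Without a detection call, whether GHR was above background is not known. The gamma_OFF and CTRL arrays overlapped, and both gamma_ON arrays lay above them. The difference of gamma_OFF from CTRL was 0.02 (SE 0.12, 95% interval -0.25 to 0.28, adjusted p = 0.934). Gamma_ON exceeded CTRL by 0.41 (SE 0.12, interval 0.15 to 0.68), with an adjusted p of 0.134 that missed the threshold of 0.05. Gamma_OFF stood 0.40 below gamma_ON (log2 difference -0.40, interval -0.66 to -0.13, adjusted p = 0.0698, and 0.0426 without gamma_OFF replicate 1). With array weights the gamma_ON difference from CTRL had an adjusted p of 0.0468.

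ANXA2R had nearly equal levels in all groups. It stood at 6.19 and 6.13 on the gamma_OFF arrays, at 6.22 and 6.08 on the gamma_ON arrays, and at 6.26 and 6.17 on the CTRL arrays, and each pair of groups overlapped. The difference from CTRL was -0.05 in gamma_OFF (interval -0.32 to 0.21, adjusted p = 0.784) and -0.06 in gamma_ON (interval -0.33 to 0.21, adjusted p = 0.873). Gamma_OFF and gamma_ON differed by 0.01 (interval -0.26 to 0.27, adjusted p = 0.969). For gamma_OFF against CTRL the interval spans 0.802 to 1.16-fold. The row of ANXA2R-OT1, a noncoding transcript that overlaps ANXA2R and was added after its values were seen, differed from CTRL by 0.34 in gamma_OFF (SE 0.17, adjusted p = 0.211).

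Of the 2 genes chosen by position, 0 were called by limma in any comparison. At an unadjusted p under 0.05, 0 of 2 passed for gamma_OFF against CTRL and 1 of 2, GHR, passed in each comparison with gamma_ON. The share of all genes under that threshold was not worked out. Counts at an unadjusted p, here and below, are therefore not read as results about these genes. Over all genes, 2.77% were called higher and 6.08% lower in gamma_OFF against CTRL. In gamma_ON against CTRL 0.739% were called higher and 0.806% lower, and in gamma_OFF against gamma_ON 2.02% higher and 3.98% lower. Groups that do not overlap are common with 2 arrays each: they occurred for 61.3% of genes in gamma_OFF against CTRL, 52.4% in gamma_ON against CTRL and 63.3% in gamma_OFF against gamma_ON.

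None of the 10 protein-coding genes taken around the locus had a difference near that of CCDC152, which was chosen for its rise. The 5 nearest measured protein-coding genes before GHR were MROH2B, C6, OXCT1, RIMOC1 and FBXO4, and the 5 after ANXA2R were ZNF131, NIM1K, HMGCS1, CCL28 and TMEM267. In gamma_OFF against CTRL their differences ran from -0.60 to 0.33 with a median of 0.05, against 0.01 over all genes and -0.03 over the 641 genes of chromosome 5. None was called higher and 1 was called lower. An unadjusted p under 0.05 in limma was found for 4 of the 10, with no share over all genes to set beside it. The called gene, TMEM267, which encodes a membrane protein, had 6.24 and 5.98 on the gamma_OFF arrays, 6.52 and 6.51 on the gamma_ON arrays, and 6.73 and 6.69 on the CTRL arrays. It fell by 0.60 in gamma_OFF against CTRL (SE 0.13, adjusted p = 0.0272). Its adjusted p was 0.143 with either CTRL array dropped, 0.0573 without either gamma_ON array and 0.0808 without gamma_OFF replicate 2.

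In gamma_ON against CTRL the 10 neighbours ran from -0.19 to 0.48 (median 0.03), with 0 called by limma and 3 at an unadjusted p under 0.05. In gamma_OFF against gamma_ON they ran from -0.51 to 0.35 (median -0.07), with 0 called and 5 at an unadjusted p under 0.05. HMGCS1, the cytosolic HMG-CoA synthase of cholesterol synthesis, marked both ends, at 0.48 in gamma_ON against CTRL (adjusted p = 0.225) and -0.51 in gamma_OFF against gamma_ON (adjusted p = 0.0902). LOC100132356, an uncharacterised noncoding gene beside ANXA2R that was added after its values were seen, fell by 0.66 in gamma_OFF against CTRL (SE 0.12, adjusted p = 0.0189, 0.0851 without CTRL replicate 1 and 0.143 without CTRL replicate 2). Of the genes shown from MROH2B to TMEM267, CCDC152 was the only one with a difference above 1 in any comparison. It was chosen for its rise, and only 2 of 14884 genes reached 2 in gamma_OFF against CTRL. The contrast with its neighbours therefore says little about the locus, and the share of all genes above 1 was not worked out. Each gene was taken by 1 row, and noncoding genes before GHR or after ZNF131 were not included.

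**Figure D2:**
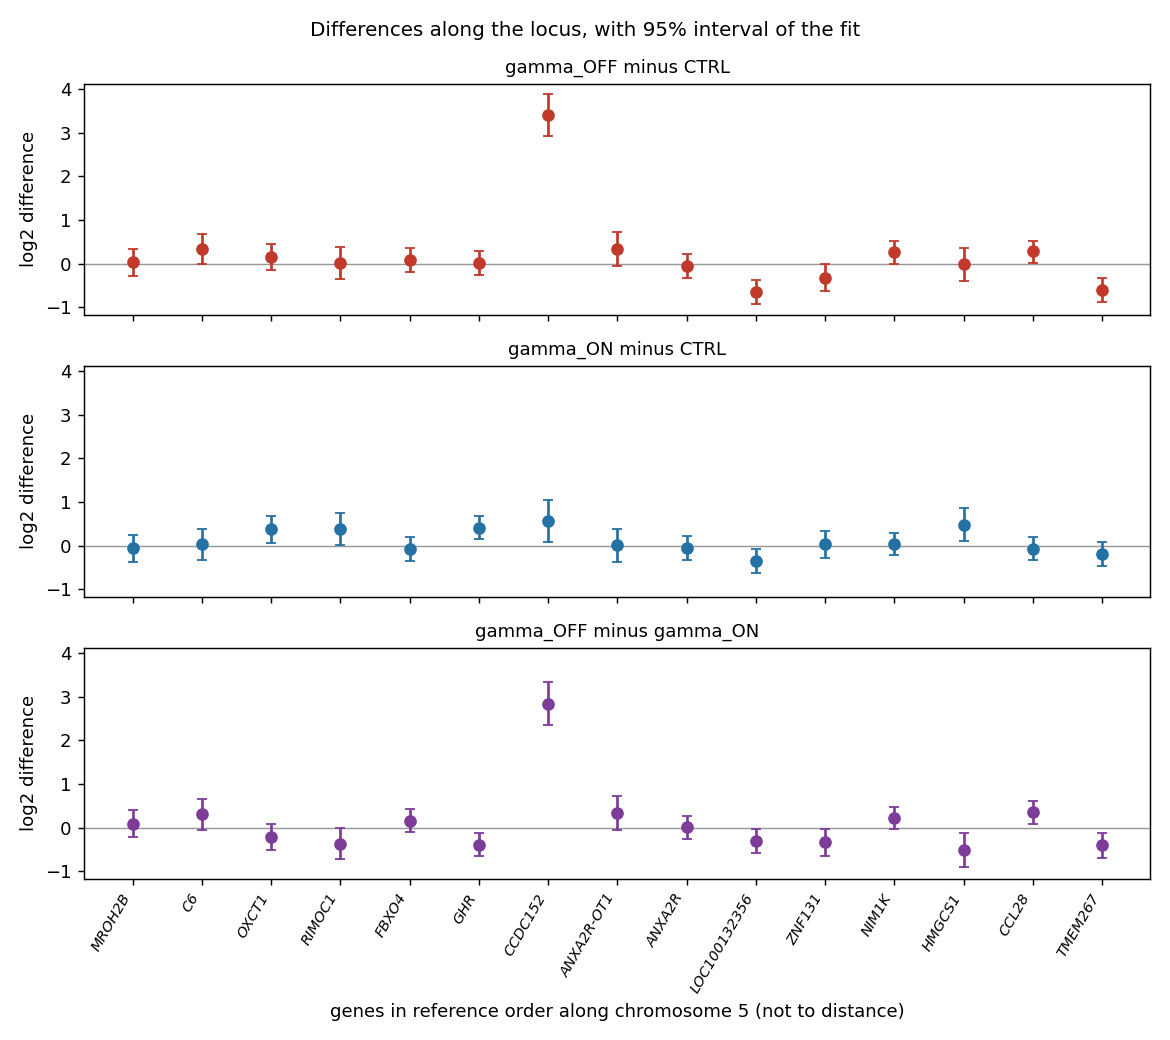
Log2 difference of 15 genes from MROH2B to TMEM267, for gamma_OFF minus CTRL, gamma_ON minus CTRL and gamma_OFF minus gamma_ON. Genes are in reference order and not to distance, and noncoding genes before GHR or after ZNF131 were not included. Bars are 95% intervals from the fit. CCDC152 stands at 3.40 and 2.84 in the comparisons with gamma_OFF, and the other genes lie between -0.66 and 0.48.

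The selenoprotein genes, which encode the proteins that carry selenocysteine, showed few differences past the test. Of 25 listed, 19 were measured. In gamma_OFF against CTRL 0 were called by limma, 2 higher and 2 lower at an unadjusted p under 0.05, with a median of -0.08 against 0.01 over all genes. GPX6 and GPX3, of the glutathione peroxidase family, stood at 0.43 and 0.42 (adjusted p = 0.0676 and 0.144), and SELENOK, a protein of the endoplasmic reticulum membrane, at -0.39 (adjusted p = 0.0657). In gamma_ON against CTRL 0 were called, 2 higher and 1 lower unadjusted, with a median of 0.03 against 0.02. TXNRD1, the cytosolic thioredoxin reductase, stood at -0.05 in gamma_OFF and 0.18 in gamma_ON against CTRL, and GPX4, which reduces lipid peroxides, at -0.06 and 0.01.

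In gamma_OFF against gamma_ON 1 of the 19 was called, lower. SELENOH, a nuclear selenoprotein, had 8.15 and 7.88 on the gamma_OFF arrays, 8.60 and 8.52 on the gamma_ON arrays, and 8.16 and 8.26 on the CTRL arrays. It fell by 0.55 in gamma_OFF against gamma_ON (SE 0.13, adjusted p = 0.0468), and the gamma_ON arrays were the high ones. Leaving out 1 array of these groups gave -0.51 without gamma_ON replicate 1 and -0.59 without gamma_ON replicate 2. It gave -0.68 without gamma_OFF replicate 1 and -0.41 without gamma_OFF replicate 2. The call was kept only without gamma_OFF replicate 1. It was lost with only the 2 groups in the fit (adjusted p = 0.0836), and dropping either CTRL array gives that same fit. The call was also lost after quantile normalization (-0.41, adjusted p = 0.0979), with array weights (0.0782), with the replicate block (0.0508), and over all named rows (0.0515) or every row (0.145).

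All 8 measured genes of selenocysteine incorporation and selenium handling, of 10 listed, had negative differences in gamma_OFF. The list median was -0.20 against CTRL (0.01 over all genes) and -0.31 against gamma_ON (-0.02 over all genes). After quantile normalization the list medians were -0.11 and -0.18. Some differences from CTRL were near 0, at -0.02 for PSTK and SEPHS1 and -0.04 for SCLY. With all-gene medians near 0, roughly as many genes lay below 0 as above it. The genes of the list share the same arrays and were not tested as a set, so the shared sign is not read as particular to it. Against CTRL 2 were called lower and 6 did not pass, while 6.08% of all genes were called lower. LRP2, which encodes megalin, an endocytic receptor that takes up selenoprotein P in the kidney, had 6.38 and 6.47 on the gamma_OFF arrays, 7.02 and 7.02 on the gamma_ON arrays, and 7.28 and 7.04 on the CTRL arrays. The gamma_OFF arrays were the lowest. LRP2 fell by 0.73 in gamma_OFF against CTRL (SE 0.13, adjusted p = 0.0137, 0.107 without CTRL replicate 1 and 0.0521 without CTRL replicate 2).

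LRP2 was also the 1 gene of this list called in gamma_OFF against gamma_ON, where it fell by 0.59 (adjusted p = 0.0391). There the adjusted p was 0.0625 with either CTRL array dropped, 0.261 for gamma_ON replicate 1, 0.113 for gamma_ON replicate 2, 0.0944 for gamma_OFF replicate 2 and 0.0737 with array weights. SECISBP2L, a paralog of the factor SECISBP2 that binds the selenocysteine stem-loop, fell by 0.48 in gamma_OFF against CTRL (SE 0.11, adjusted p = 0.0346). It had 8.16 and 8.09 on the gamma_OFF arrays, 8.49 and 8.50 on the gamma_ON arrays, and 8.61 and 8.61 on the CTRL arrays. Its adjusted p was 0.166 with CTRL replicate 1 dropped, 0.186 with CTRL replicate 2 dropped, 0.0694 without either gamma_ON array and 0.0855 without gamma_OFF replicate 2. The call was also lost after quantile normalization (-0.36, adjusted p = 0.0731), with array weights (adjusted p = 0.0528) and over every row of the table (adjusted p = 0.0896). SECISBP2 itself stood at -0.35 (adjusted p = 0.1003). In gamma_ON against CTRL 0 of the 8 were called, and 0 at an unadjusted p under 0.05.

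Growth hormone signalling, the pathway of GHR, held 12 measured genes of 14. In gamma_OFF against CTRL 0 were called by limma, with 1 higher and 3 lower at an unadjusted p under 0.05 and a median of 0.02. JAK2, the kinase bound to GHR, stood at -0.44 (adjusted p = 0.119), STAT5A and STAT5B, which it activates, at 0.12 and -0.02, and IGF1, a growth factor gene that growth hormone induces in liver, at -0.40 (adjusted p = 0.0951). IGF1 stood at -0.54 in gamma_ON against CTRL (unadjusted p = 0.00369 in limma, adjusted p = 0.104). In gamma_ON against CTRL 1 of 12 was called, higher, with a median of 0.04. PRLR, the prolactin receptor of the same receptor family, had 5.77 and 5.56 on the gamma_OFF arrays, 6.02 and 5.79 on the gamma_ON arrays, and 5.29 and 5.18 on the CTRL arrays. It rose by 0.67 in gamma_ON against CTRL (SE 0.13, adjusted p = 0.0488), and stood at 0.43 in gamma_OFF against CTRL (unadjusted p = 0.0113 in limma, adjusted p = 0.0766). The call was lost on leaving out any array of those groups: the adjusted p was 0.179 when CTRL replicate 1 was dropped, 0.340 for CTRL replicate 2, 0.365 for gamma_ON replicate 1 and 0.137 for gamma_ON replicate 2. It was also lost after quantile normalization (adjusted p = 0.0737) and over all named rows (0.0529). In gamma_OFF against gamma_ON 0 of 12 were called, with 1 higher and 3 lower unadjusted.

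Beside ANXA2R, annexin A2 itself (ANXA2) stood at -0.19 in gamma_OFF and -0.05 in gamma_ON against CTRL (adjusted p = 0.307 and 0.900). Its partner S100A10 had 6.89 and 6.77 on the gamma_OFF arrays, 7.40 and 7.28 on the gamma_ON arrays, and 7.55 and 7.33 on the CTRL arrays. S100A10 fell by 0.61 in gamma_OFF against CTRL (SE 0.13, adjusted p = 0.0265) and by 0.51 against gamma_ON (adjusted p = 0.0499). The adjusted p against CTRL was 0.166 with CTRL replicate 1 dropped, 0.0897 with CTRL replicate 2 dropped, 0.0537 without either gamma_ON array and 0.0851 without gamma_OFF replicate 2. Against gamma_ON it was 0.0828 with either CTRL array dropped, 0.312 for gamma_ON replicate 1, 0.115 for gamma_ON replicate 2, 0.143 for gamma_OFF replicate 2, 0.0576 after quantile normalization, 0.0910 with array weights and 0.0543 over all named rows.

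SELENOP is itself a liver product. Over other genes of secreted liver proteins the mean of 12 measured genes of 14 was 7.11 to 7.15 on gamma_OFF arrays, 9.02 to 9.08 on gamma_ON arrays and 7.09 to 7.35 on CTRL arrays. In gamma_OFF against CTRL 2 were called higher and 3 lower (median 0.03), against 2.77% and 6.08% of all genes. In gamma_ON against CTRL 8 were called higher and 0 lower (median 1.78), against 0.739% and 0.806%, and all 12 lay above 0. In gamma_OFF against gamma_ON 0 were called higher and 8 lower (median -2.56), against 2.02% and 3.98%. APOA2, an apolipoprotein of high-density lipoprotein, had the largest difference of the list in gamma_OFF against CTRL and fell by 1.24 (adjusted p = 0.00731), a call kept under each alternative run. TTR, which encodes transthyretin, fell by 0.96 (adjusted p = 0.0144, 0.0870 without CTRL replicate 1 and 0.0509 after quantile normalization). FGB, the fibrinogen beta chain gene, fell by 0.75 (adjusted p = 0.0268), and its adjusted p was 0.152 with CTRL replicate 1 dropped, 0.0556 for either gamma_ON array, 0.0976 for gamma_OFF replicate 2 and 0.0528 with array weights. In gamma_OFF, AFP rose by 1.02 against CTRL (adjusted p = 0.00743, and 0.0558 without CTRL replicate 2) and AHSG, which encodes fetuin A, rose by 0.65 (adjusted p = 0.0464). The AHSG call was kept without CTRL replicate 1, and its adjusted p was 0.270 with CTRL replicate 2 dropped, 0.0804 for either gamma_ON array, 0.0697 for gamma_OFF replicate 1, 0.114 for gamma_OFF replicate 2, 0.0705 after quantile normalization and 0.0891 with array weights.

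**Figure D3:**
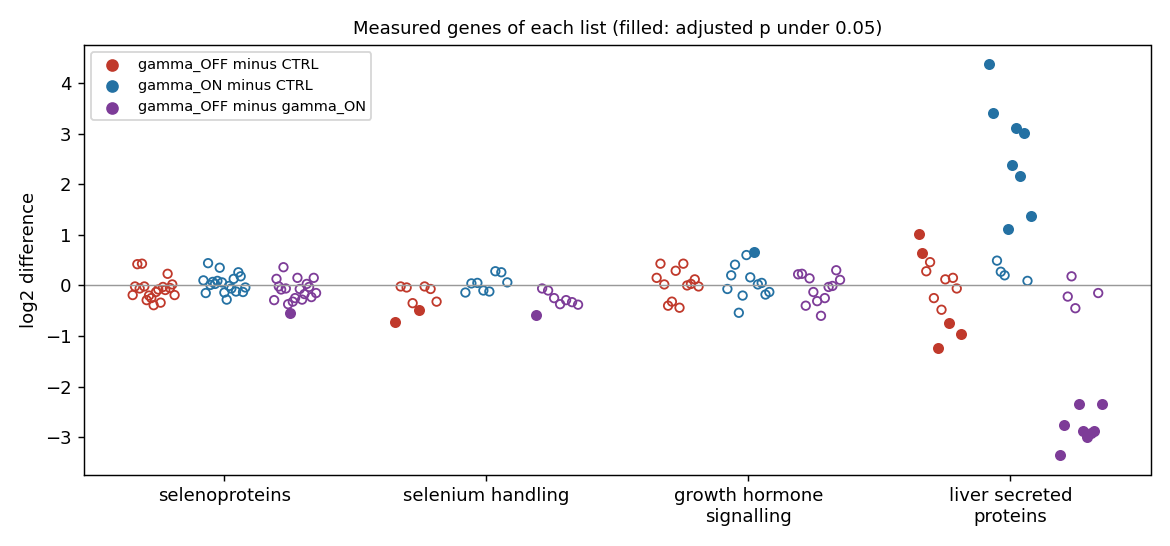
Log2 difference of each measured gene of 4 lists in gamma_OFF minus CTRL, gamma_ON minus CTRL and gamma_OFF minus gamma_ON; filled points had an adjusted p under 0.05. The 19 selenoprotein genes lie between -0.55 and 0.44, while liver secreted protein genes reach 4.37 in gamma_ON minus CTRL.

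Genes whose levels ran most like those of CCDC152 over the 6 arrays were ranked by Pearson's r among the 888 other genes whose range was at least 1 log2 unit. These r values describe 6 arrays that fall into 3 groups, across genes that share the same arrays, and carry no p. QNG1, which encodes a queuosine nucleotide glycosylase, came first with r = 0.989, and had 6.57 and 6.29 on the gamma_OFF arrays, 5.35 and 5.20 on the gamma_ON arrays, and 5.20 and 5.32 on the CTRL arrays. IZUMO2, of the sperm protein family of IZUMO1, had r = 0.976, NPTX1, a neuronal pentraxin gene, 0.956, and CNKSR2, a scaffold gene of Ras signalling, 0.956. The microRNA gene MIR509-1 had 0.952 and LINC02433, MIR4716, STC1, MIR4420 and LINC00691 had 0.936 to 0.944. STC1 encodes stanniocalcin.

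The steps of these genes were necessarily smaller, since CCDC152 was chosen for its rise and had the highest difference of all genes. QNG1 differed between gamma_OFF and CTRL by 1.17 and the other 9 by 0.78 to 1.28, against 3.40 for CCDC152. An r above 0.95 was found for 5 genes, and an r below the negative of that value for 22. The 5 lowest were PCDHB10 (r = -0.991), a protocadherin gene on chromosome 5, CAMK2D (-0.989), a calcium-dependent kinase gene, SCARNA1 (-0.982), a Cajal body RNA gene, NFIB (-0.981), a transcription factor gene, and FLRT3 (-0.974), whose membrane protein interacts with FGF receptors. FLRT3 had 7.19 and 7.11 on the gamma_OFF arrays, 8.84 and 8.72 on the gamma_ON arrays, and 9.01 and 8.71 on the CTRL arrays. None of the 10 genes of highest r lies on chromosome 5. That chromosome holds only 641 of the 14884 genes, so this count is not read as a result.

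**Figure D4:**
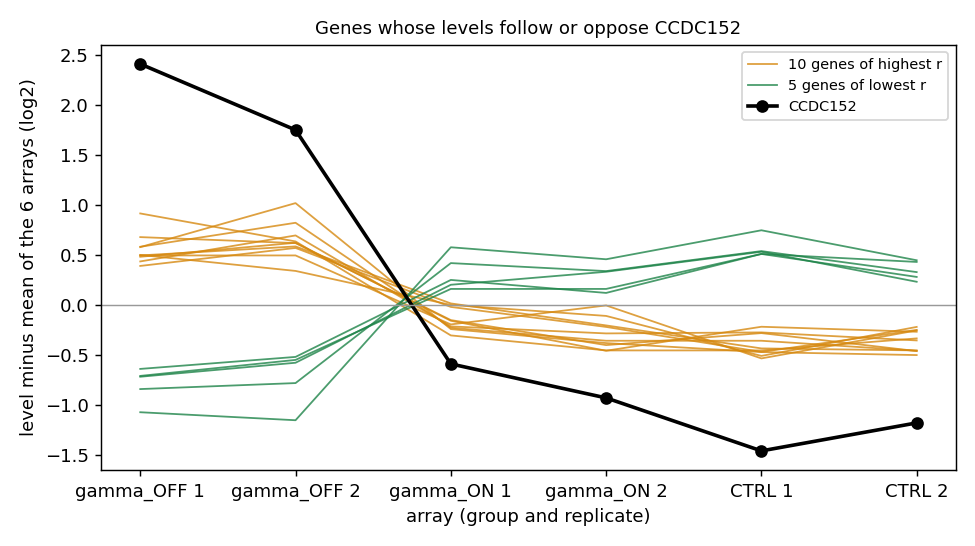
Level minus the mean of the 6 arrays (log2) for CCDC152, the 10 genes of highest r with it and the 5 of lowest r, on each array. CCDC152 spans more than 3 log2 units, and the 10 genes follow it with steps of 0.78 to 1.28 between gamma_OFF and CTRL.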

How the data were processed

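Total RNA of 6 samples was measured on 1 gene array each. The deposited values are log2 levels per array row made by the authors; the submitters' processing notes name RMA and Partek 6.6, with no order or options, and neither genome build nor annotation is given in the sources used here. That the scale is log2 follows from RMA and from the values, with a median of 6.11 to 6.25 per array. Row names came from the platform annotation (16098 of 53617 rows with 1 gene symbol, 0 with several, 37519 unnamed here) and all 16098 gene IDs matched RefSeq GRCh38.p14, with 0 symbols changed. For the 779 genes with several rows the row of highest mean was used, which left 14884 genes.

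One limma 3.58.1 fit (lmFit and eBayes, R 4.3.3) over all 6 arrays and all genes, with 3 residual and 6.05 prior degrees of freedom, gave 3 two-sided contrasts; p-values were adjusted by Benjamini-Hochberg over all genes and called under 0.05. Intervals are 95% and unadjusted. With 2 arrays per group the smallest p of an exact permutation test is 0.333, so none was run. The number of arrays limits the precision. The scripts were tested on simulated data.

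The members and gene lists were chosen with earlier results of these data known. Named genes were the members, called list genes (up to 6 per selenium list and 4 per other list), 5 neighbours on each side, and the 10 genes of highest and 5 of lowest r with CCDC152. Other genes given beside a count were chosen after their values were seen. Alternatives changed the spread model, array weights, the arrays and rows in the fit, a filter on dim genes, the normalization and the replicate term.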

Additional observations from a re-analysis of the deposited data

How the results depend on the processing

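CCDC152 kept its direction in all 3 comparisons under each alternative that gave a value, which tests little. With 2 equally weighted arrays per group, changing the spread model, weights, rows or replicate term cannot move its difference. Its groups do not overlap, so leaving out an array could not turn the direction. Quantile normalization gave 3.45 for gamma_OFF minus CTRL, 0.60 for gamma_ON minus CTRL and 2.85 for gamma_OFF minus gamma_ON. Leaving out 1 array gave 3.08 to 3.73 for gamma_OFF minus CTRL, 0.40 to 0.73 for gamma_ON minus CTRL and 2.51 to 3.17 for gamma_OFF minus gamma_ON. With genes under the 25th percentile of the mean left out, CCDC152 and GHR were not in the fit. GHR was called in gamma_ON minus CTRL with array weights (0.41) and in gamma_OFF minus gamma_ON without gamma_OFF replicate 1; leaving out arrays gave -0.43 to -0.36 there. ANXA2R was called under no alternative. Quantile normalization moved the median of all genes by less than 0.1, but list medians near 0 shifted: in gamma_OFF minus CTRL it gave 0.09 for growth hormone signalling (0.02 as deposited), -0.03 for selenoproteins (-0.08) and -0.05 for liver proteins (0.03), and in gamma_ON minus CTRL 0.07 for growth hormone signalling (0.04).

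The counts of called genes over the whole table depended on the fit. For gamma_OFF minus CTRL the count was 1317, against 767 with array weights, 567 with only the 2 groups compared and 131 to 3515 with 1 array left out (131 when CTRL replicate 2 was dropped, 189 for CTRL replicate 1, 389 for gamma_OFF replicate 2, 567 for either gamma_ON array and 3515 for gamma_OFF replicate 1). For gamma_ON minus CTRL it was 230, against 386 with an intensity trend, 803 with array weights, 487 with only the 2 groups, 384 with dim genes left out, 89 over every row of the table and 34 to 487 with 1 array left out (34 when gamma_ON replicate 2 was dropped, 38 for gamma_ON replicate 1 or CTRL replicate 2, 91 for CTRL replicate 1 and 487 for either gamma_OFF array). For gamma_OFF minus gamma_ON it was 892, against 1628 with an intensity trend, 229 with array weights, 275 with only the 2 groups, 1895 with dim genes left out, 476 after quantile normalization, 56 over every row and 49 to 4061 with 1 array left out (49 when gamma_ON replicate 1 was dropped, 67 for gamma_ON replicate 2, 150 for gamma_OFF replicate 2, 275 for either CTRL array and 4061 for gamma_OFF replicate 1). The cause was not tested. Fits with 1 array left out or 2 groups hold fewer arrays. In each comparison with gamma_OFF, however, the count rose without gamma_OFF replicate 1 and fell without gamma_OFF replicate 2. It thus depended on which gamma_OFF array was kept.

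Replicate numbers are shared between groups, but the deviations of same-numbered arrays correlated at -0.0962 to 0.0880, so the numbers were not taken as pairs. With the replicate block the counts were 1245, 210 and 871, and of 28 calls on named genes 1 was lost (SELENOH, adjusted p = 0.0508). Of the same 28, 14 were lost when every row was tested, 8 with only the 2 groups compared, 6 with array weights, 6 after quantile normalization, 4 over all named rows, 0 with an intensity trend, and 1 to 12 with 1 array left out. None reversed. Of the 10 genes most like CCDC152 by r, 3 were also among the 10 of least mean absolute difference.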
